A study of Mus musculus with 4 samples.

Results

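Brain tissue yields a small number of miRNAs that are best known from other organs, and 8 of them were followed here in the RNA-induced silencing complex (RISC) of mouse cortex and hippocampus: mmu-miR-1a-3p and mmu-miR-133a-3p of heart and skeletal muscle, mmu-miR-206-3p of skeletal muscle, mmu-miR-122-5p of liver, mmu-miR-375-3p of pancreatic islets and pituitary, mmu-miR-192-5p and mmu-miR-194-5p of liver, kidney and gut, and mmu-miR-203-3p of skin. The prefix for mouse is left out below. They were chosen by name as markers of tissues outside the forebrain, without a rule on their values but with earlier results of these data known. They make up 8 of the 1029 miRNA names in the deposited table. All 8 were detected in every library. The reads of all sequences with 1 name were summed and are given as CPM, counts scaled to the same total in every library. The libraries hold R-sRNAs, the short RNAs that were pulled down with the Ago proteins by a GW182 peptide, from cortex and hippocampus combined. The mice were labelled BL6, and the methods name male C57BL/6J, an inbred wild-type strain. There were 2 libraries from 2-month-old and 2 from 18-month-old mice, none of them treated. The labels do not say whether 2 libraries of an age came from separate animals, so the p-values measure only the spread between these libraries.

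A mature miRNA is cut from one arm of a hairpin and loaded into an Ago protein, where its seed (bases 2 to 8) pairs with target mRNAs. A start that is moved by 1 base gives a different seed and therefore a different set of possible targets. miR-1 and miR-133a are made from shared transcripts in muscle, miR-206 and miR-133b from another, and miR-192 and miR-194 lie beside each other in a cluster. Each short RNA in the table also carries a 6mer seed viability, which is the survival of cells, in percent of control, after transfection with a short RNA that has the same bases 2 to 7. It is the mean of 3 mouse cell lines. A low viability marks a toxic seed.

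The mature sequences of 4 of the 8 members were matched by name in RefSeq (GRCm38.p6), and they are shown, with the seed in capitals, because the results below turn on the seed and on the ends of the reads.
miR-206-3p: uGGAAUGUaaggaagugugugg
miR-203-3p: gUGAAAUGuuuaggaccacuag
miR-192-5p: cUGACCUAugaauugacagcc
miR-215-5p, a relative of miR-192-5p: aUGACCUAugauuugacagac
miR-194-5p: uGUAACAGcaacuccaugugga
miR-192-5p and miR-215-5p share the seed UGACCUA. The mature miR-194-5p is the same in both genes that encode it, whereas the bases that follow it in the hairpins differ. The hairpins are given with the mature miRNA in capitals.
Mir194-1: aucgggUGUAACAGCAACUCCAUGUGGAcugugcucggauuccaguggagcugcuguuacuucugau
Mir194-2: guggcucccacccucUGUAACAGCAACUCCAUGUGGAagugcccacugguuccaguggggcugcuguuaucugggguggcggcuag

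By name in the GRCm38 annotation, Mir194-2 lies at chr19:6264643-6264728 (+), 115 bp upstream of Mir192 at chr19:6264844-6264932 (+), and neither overlaps another annotated gene. Mir194-1 lies at chr1:185313319-185313385 (+), 195 bp from Mir215, in an intron of the antisense RNA 2010103J01Rik and, on the opposite strand, of the protein-coding gene Iars2. Mir206 (chr1:20679010-20679082, +) lies in an exon of the lincRNA Gm28653, 3686 bp from Mir133b. Mir203 (chr12:112130880-112130955, +) and Mir375 (chr1:74900658-74900721, -) overlap no other gene. Mir1a-1 (chr2:180389048-180389124, +) and Mir133a-2 (chr2:180398379-180398482, +) lie 9254 bp apart.

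The 4 libraries held 9067007 to 11388999 reads, so that 3 reads, the floor used for a count of 0, equalled 0.263 to 0.331 CPM. Between 96.6% and 96.7% of the reads carried a miRNA name. All 7 brain miRNAs of the marker list (miR-124-3p, miR-9-5p, miR-128-3p, miR-138-5p, miR-132-3p, miR-219a-2-3p and miR-338-3p) were present and made up 21.3% to 24.6% of the reads, so the markers of the labelled tissue were present. Of the 3 red blood cell markers, miR-451a and miR-144-3p were present, and the name miR-486a-5p was not found. Reads under other miR-486 names were not looked up. The sum of miR-451a and miR-144-3p was 1798 and 3374 CPM in the 2-month libraries and 1698 and 2818 CPM in the 18-month libraries, so the ages overlapped.

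The 8 members together took 984 and 817 CPM in the 2-month libraries and 907 and 1085 CPM in the 18-month libraries, between 0.0817% and 0.109% of the reads. miR-194-5p alone gave 56.7% of their reads. Their reads had mean lengths between 21.1 and 22.02 nt, so levels were compared between members without a correction for length. No other property of the sequences was corrected for either, so orders between miRNAs are orders of read counts.

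miR-194-5p was the most abundant member, with 572 and 481 CPM in the 2-month libraries, against 483 and 616 CPM in the 18-month libraries. Every library held more of it than of any other member. Its mean of 538 CPM put it at rank 150 of all miRNAs, 176 times below miR-124-3p, the most abundant neuronal marker.

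miR-133a-3p, miR-192-5p and miR-1a-3p followed with means of 109, 103 and 82.7 CPM, and their ranges over the libraries overlapped, so that no order among these 3 can be given. miR-375-3p with a mean of 58.2 CPM and miR-203-3p with 47.7 CPM overlapped each other, and miR-375-3p also overlapped the 3 above it. The lowest miR-1a-3p library (62.2 CPM) lay above the highest miR-203-3p library (52.5 CPM).

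The lowest levels were those of miR-122-5p and miR-206-3p. miR-122-5p, the dominant miRNA of hepatocytes, had 6.48 and 7.11 CPM in the 2-month libraries, against 5.01 and 6.07 CPM in the 18-month libraries, from 257 reads in all. miR-206-3p had 5.53 and 5.005 CPM in the 2-month libraries, against 3.31 and 3.75 CPM in the 18-month libraries, from 184 reads. Both were lower in each 18-month than in each 2-month library, and both lay far above the floor of 3 reads. The 95% Poisson intervals of miR-206-3p, which cover counting error only, ran from 3.79 to 7.15 CPM over the 2-month libraries and from 2.31 to 5.24 CPM over the 18-month libraries, and overlapped. For comparison, the CPM of the ages did not overlap for 53.5% of the 456 miRNAs with a mean of at least 10 CPM.

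**Figure D1:**
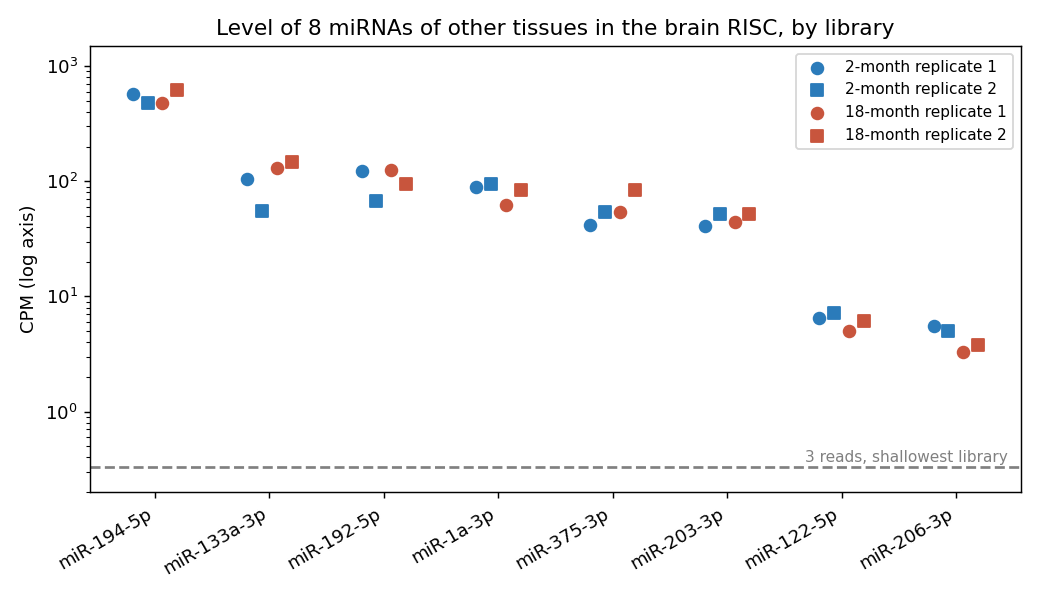
CPM (log axis) of the 8 miRNAs in each of the 4 libraries; circles are replicate 1, squares are replicate 2, and the dashed line marks 3 reads in the shallowest library. miR-194-5p lies between 481 and 616 CPM, 5 members lie between 41.2 and 147 CPM, and miR-122-5p and miR-206-3p lie below 7.2 CPM.

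A list of 21 other miRNAs of tissues outside the brain (muscle, gut and kidney, epithelium, exocrine pancreas, embryonic stem cells and testis) had 11 in the table, of which 2 had a mean of at least 10 CPM. The 10 not in the table were all from the embryonic stem cell and testis groups. miR-499-5p, which is made from an intron of the muscle myosin gene Myh7b, had 24.3 and 26.4 CPM in the 2-month libraries, against 30.4 and 25.9 CPM in the 18-month libraries. miR-205-5p of stratified epithelium had 10.5 and 12.3 CPM in the 2-month libraries, against 13.1 and 25.8 CPM in the 18-month libraries. Neither was called between the ages (limma, adjusted p = 0.778 and adjusted p = 0.425). miR-133b-3p, the partner of miR-206, had 0.954 to 1.98 CPM under its own name, and a further 14.6 to 24.9 CPM counted under miR-133a-3p could also be part of it, so its level is a lower bound. miR-215-5p, the partner of miR-194-1, had 0.263 to 1.98 CPM.

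To see whether the ages differed, limma with an intensity trend was run on log2(CPM + 1) over the 456 miRNAs with a mean of at least 10 CPM, which included 6 of the 8 members. Changes are 18-month minus 2-month on the log2(CPM + 1) scale, and a miRNA was called where its p before any adjustment was under 0.05. Of the 456, 74 were called (16.2%), 19 higher and 55 lower, and 1 passed the Benjamini-Hochberg adjustment. Of the 6 members tested, 1 was called, miR-133a-3p, a share near that background.

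miR-133a-3p had 104 and 55.0 CPM in the 2-month libraries, against 129 and 147 CPM in the 18-month libraries. Both 18-month libraries lay above both 2-month libraries, but the 2-month libraries differed from each other by 0.90 on the log2 scale, whereas the median difference between the 2-month libraries over all 456 miRNAs was 0.26. The change was 0.86 (SE 0.33, 95% confidence interval 0.06 to 1.66), with a limma unadjusted p = 0.0395 and adjusted p = 0.269. Adjusted values over all 14 alternatives ran from 0.0903 to 0.574. The call was lost without the second 2-month library, when the change was 0.40, and was kept without the first, when it was 1.31. It was also lost without either 18-month library, with changes of 0.95 and 0.77. With a minimum mean of 100 CPM it was narrowly lost (limma unadjusted p = 0.0508, adjusted p = 0.315). With the replicate number as a block it was lost as well (limma unadjusted p = 0.0779, adjusted p = 0.298).

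miR-1a-3p, from the same muscle transcripts, had 89.8 and 95.4 CPM in the 2-month libraries, against 62.2 and 83.3 CPM in the 18-month libraries. Here both 18-month libraries lay below both 2-month libraries, the opposite of miR-133a-3p. The change of -0.36 (SE 0.24) was not called (limma adjusted p = 0.450). In the smooth muscle list, miR-143-3p and miR-145a-5p were both present, and their sum was 6415 and 6559 CPM in the young libraries and 5033 and 4915 CPM in the old ones, without overlap, although neither miRNA was called (limma adjusted p = 0.361 and adjusted p = 0.442). The endothelial marker miR-126a-3p had 9242 and 8854 CPM in the 2-month libraries, against 2557 and 6489 CPM in the 18-month libraries. It was called lower, with a change of -1.15, but did not pass the adjustment (limma adjusted p = 0.266). Over all 456 miRNAs, 55 were called lower. The part of vessel cells in the values of miR-1a-3p and miR-133a-3p was not tested, and in bulk tissue fewer cells of a type and less RNA per cell cannot be told apart.

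Set against each other within a library, which does not depend on the scale of the library, there were 1.15 and 0.576 reads of miR-133a-3p per read of miR-1a-3p at 2 months and 2.08 and 1.76 at 18 months. The ratio was thus higher in both 18-month libraries, by 1.23 on the log2 scale. It was looked at after the values were seen, and with 2 libraries against 2 the exact permutation test (two-sided) cannot go below p = 0.3333, the value it gave. Leaving out each library in turn gave differences between 0.73 and 1.73. For the pair miR-194-5p and miR-192-5p the ratios were 4.64 and 7.11 in the 2-month libraries, against 3.85 and 6.54 in the 18-month libraries, which overlapped.

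miR-375-3p, which is abundant in endocrine cells, had 41.5 and 53.9 CPM in the 2-month libraries, against 53.7 and 83.5 CPM in the 18-month libraries. The second 2-month library was as high as the first 18-month library. The change was 0.49 (SE 0.30, limma adjusted p = 0.437). In the list of pituitary, olfactory bulb and epithelial miRNAs, all 5 members (miR-200a-3p, miR-200b-3p, miR-200c-3p, miR-141-3p and miR-429-3p) were present, their sum was 28970 and 49884 CPM in the 2-month libraries, against 60617 and 66546 CPM in the 18-month libraries, and 4 of the 5 were called higher, against 19 of 456 over all miRNAs. None of the 5 passed the adjustment (limma adjusted p = 0.249 to adjusted p = 0.393). Their part in the value of miR-375-3p was not tested.

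For the other 3 members the ages overlapped. miR-192-5p had 123 and 67.6 CPM in the 2-month libraries, against 125 and 94.1 CPM in the 18-month libraries, with a change of 0.25 (95% confidence interval -0.57 to 1.06). miR-203-3p had 41.2 and 52.2 CPM in the 2-month libraries, against 44.7 and 52.5 CPM in the 18-month libraries, with a change of 0.06 (-0.54 to 0.66). For miR-194-5p the change was 0.06 (-0.50 to 0.61). In limma the adjusted p-values of these 3 members were 0.716, 0.922 and 0.922, and the intervals do not exclude changes of 0.50 in either direction. miR-206-3p and miR-122-5p were below the filter. In a fit without the filter their changes were -0.47 and -0.26 (limma adjusted p = 0.653 and adjusted p = 0.786).

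Over the 6 tested members the median change was 0.15, and 5 of 6 changes were positive. Those of miR-192-5p, miR-194-5p and miR-203-3p changed sign when 1 library was left out. The 2 members below the filter had negative changes in the fit without it (-0.47 and -0.26). The members share the same libraries and are not replicates of an age difference. The median over all 456 miRNAs was -0.22, with 144 of them positive. Rescaling the libraries by the median of ratios moved the median of all miRNAs to -0.01 and turned the calls from 19 higher and 55 lower to 39 higher and 25 lower. Relative to that shift miR-133a-3p had a change of 1.07 (limma adjusted p = 0.189) and miR-375-3p one of 0.70 (adjusted p = 0.340), both called before adjustment, while that of miR-1a-3p was -0.15 and was not called. CPM that did not overlap between the ages were found for 244 of the 456 miRNAs (53.5%) and for 2 of the 6 members, miR-133a-3p and miR-1a-3p.

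**Figure D2:**
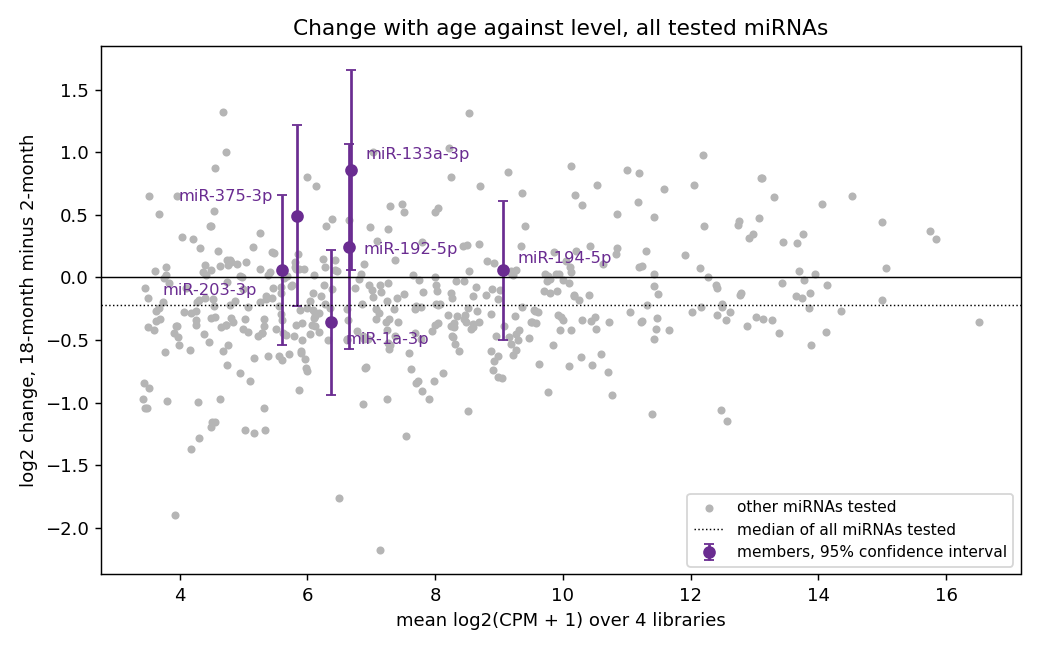
log2 change, 18-month minus 2-month, against the mean log2(CPM + 1) over 4 libraries for 456 miRNAs; purple points are the 6 members tested with 95% confidence intervals, grey points the other miRNAs, and the dotted line is the median of all (-0.22). Only the interval of miR-133a-3p (0.06 to 1.66) leaves out 0.

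The reads of a member were then divided by their 5′ start, counted from its most frequent start, since the start sets the seed. Among the members, 5 of 8 had nearly all reads at 1 start: miR-1a-3p with 97.7% to 99.3% of its reads (seed viability 51.7%), miR-375-3p with 94.9% to 96.2% (45.6%), miR-194-5p with 97.7% to 98.9% (74.5%), and miR-206-3p (51.7%, since it has the seed of miR-1a-3p) and miR-122-5p (61.5%) with all their reads. The remaining members, miR-133a-3p, miR-203-3p and miR-192-5p, were mixtures of seeds. For miR-206-3p and miR-122-5p there were only 184 and 257 reads. Sequences under 4 reads over the 4 libraries had been removed, so rare starts of these 2 could not be seen.

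miR-133a-3p had 52.3% and 56.5% of its reads at the main start in the 2-month libraries, against 51.4% and 50.4% in the 18-month libraries. Almost as many reads, 43.7% and 37.9% in the 2-month libraries, against 44.3% and 42.7% in the 18-month libraries, began 1 base downstream. The seed viability was 71.0% for the main start and 53.8% for the start 1 base downstream. Another start, 2 bases downstream, has a toxic seed with a viability of 10.8% and held 4.04% to 6.47% of the reads, with the ages overlapping. Among the sequences of miR-133a-3p, 6 of 30 could also be part of miR-133b-3p and held 17.0% to 26.5% of its reads. Without them the change of miR-133a-3p was 0.94 and was still called (limma adjusted p = 0.282).

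miR-203-3p, whose mature sequence given above starts with g, had 57.9% to 61.6% of its reads at that start and 36.6% to 38.9% at the next base, with seed viabilities of 66.4% and 76.6%. The ages overlapped for both starts. Its most abundant read of each start is shown with the seed in capitals, since the move by 1 base replaces the seed UGAAAUG by GAAAUGU.
miR-203-3p, main start: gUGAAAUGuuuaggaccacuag
miR-203-3p, 1 base downstream: uGAAAUGUuuaggaccacuag
The first had 14.97 and 19.8 CPM in the 2-month libraries, against 11.8 and 16.7 CPM in the 18-month libraries. The second had 9.06 and 13.7 CPM in the 2-month libraries, against 9.36 and 10.8 CPM in the 18-month libraries.

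Among the 6 tested members, miR-192-5p had the largest difference in starts between the ages. At 2 months 9.97% and 6.75% of its reads began 1 base downstream of the main start, and at 18 months 20.4% and 17.5% did. Both 18-month libraries lay above both 2-month libraries, and the 95% Wilson intervals, 8.45% to 11.7% and 5.19% to 8.75% against 18.3% to 22.6% and 15.1% to 20.2%, did not overlap between the ages. These intervals cover counting error only, not the spread between libraries. The mean difference was 10.6 percentage points, with standard deviations of 2.27 points at 2 months and 2.06 points at 18 months. In the share of the main start, which is nearly the complement of this share, the replicates were 3.13 and 2.47 points apart. The exact permutation test (two-sided) gave p = 0.3333, the smallest that 2 libraries against 2 allow, for this and for any other of the 20 start shares compared that did not overlap.

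The main start of miR-192-5p held 89.3% and 92.5% of its reads in the young libraries and 79.5% and 81.9% in the old ones, a difference of -10.2 points. Of all 456 miRNAs, 158 (34.6%) had shares of the main start that did not overlap between the ages, as did 3 of the 6 members (miR-192-5p, miR-133a-3p and miR-1a-3p). The median absolute difference was 0.664 points, however, and 7 of the 456 differed by at least 10 points, 6 of them without overlap. miR-192-5p ranked 7 by size, miR-133a-3p 62 and miR-1a-3p 199. With reads of 19 to 25 nt only the difference of miR-192-5p was -10.1 points. That limit kept 1286 of 1294 and 766 of 770 reads in the 2-month libraries and all reads in the 18-month libraries, so it tested little. Because the ages did not overlap, leaving out any 1 library could not change the sign of the difference.

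**Figure D3:**
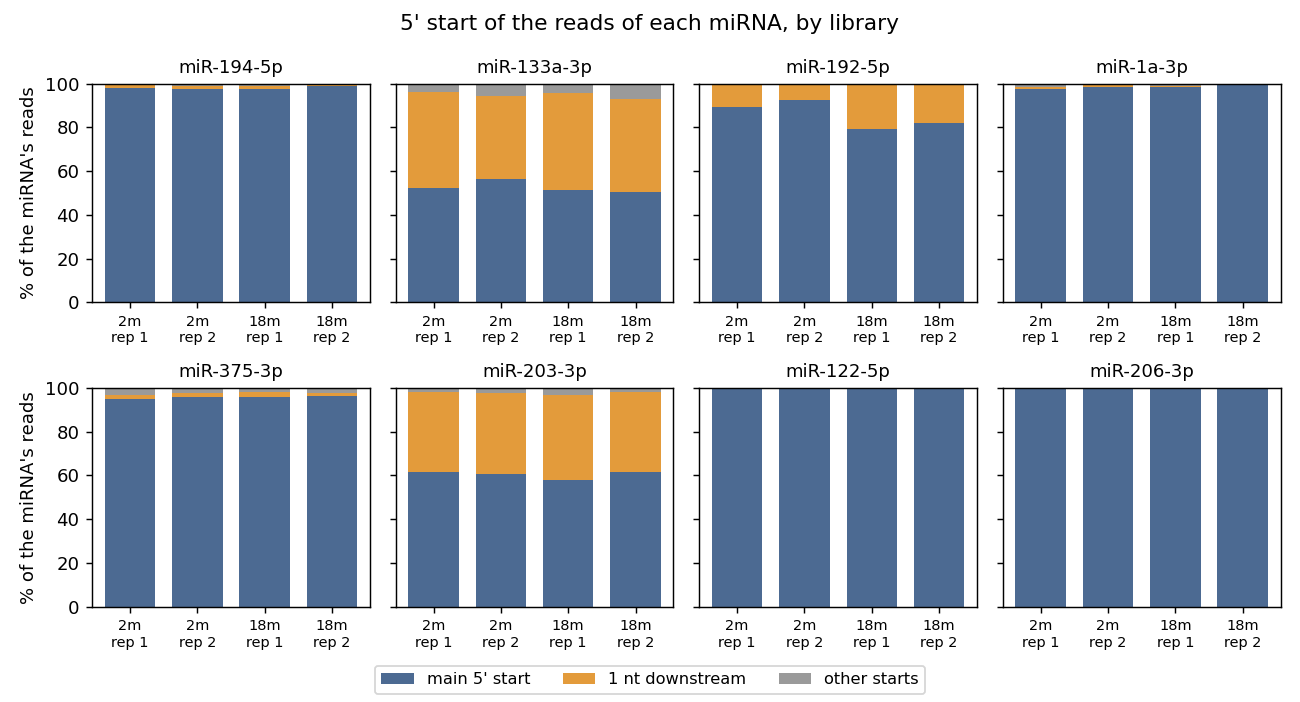
Share of the reads of each of the 8 miRNAs (percent, bars stacked to 100) at the main 5′ start, 1 nt downstream and at other starts, in the 4 libraries (2m, 2 months; 18m, 18 months; rep, replicate). The share 1 nt downstream in miR-192-5p is 6.75% and 9.97% in the 2-month libraries, against 17.5% and 20.4% in the 18-month libraries, and miR-133a-3p and miR-203-3p are mixtures of starts in every library.

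**Figure D4:**
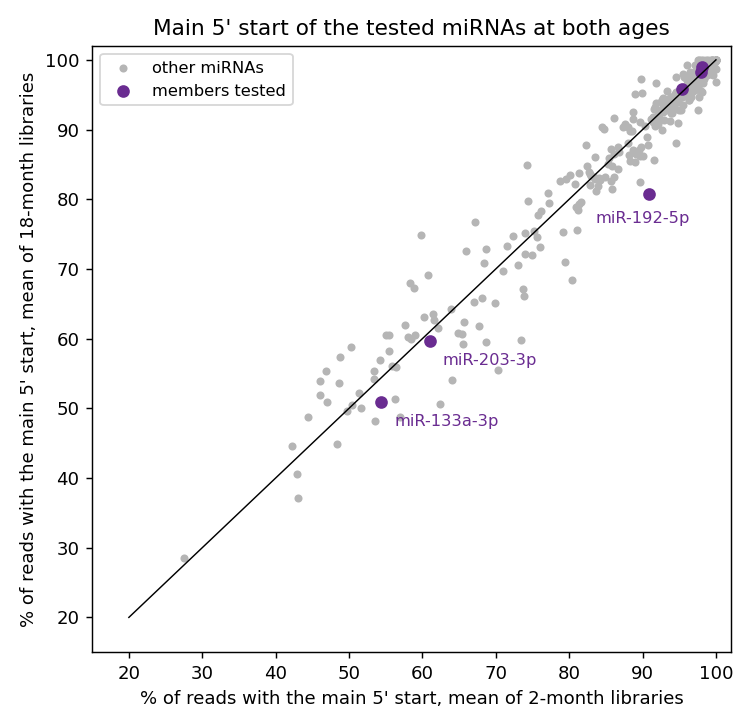
Percent of reads with the main 5′ start for 456 miRNAs, mean of the 2-month libraries (horizontal axis) against mean of the 18-month libraries (vertical axis), with the 6 members tested in purple and a line of equal shares. miR-192-5p lies 10.2 points below the line.

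The move by 1 base replaces the seed UGACCUA of miR-192-5p and miR-215-5p by GACCUAU, and the seed viability of 38.2% by 64.0%. The 3 most abundant reads of miR-192-5p all have the main start and differ in their 3′ end.
miR-192-5p, main start, 21 nt: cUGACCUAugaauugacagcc
miR-192-5p, main start, 22 nt: cUGACCUAugaauugacagcca
miR-192-5p, main start, 20 nt: cUGACCUAugaauugacagc
The first had 57.9 and 27.2 CPM in the 2-month libraries, against 48.2 and 29.7 CPM in the 18-month libraries, and its change was -0.07 (SE 0.42). The changes of the other two were 0.51 and -0.03, and none of the 3 was called.

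The reads of the other start that were called are given here, though they were chosen after their values were seen.
miR-192-5p, 1 base downstream, 22 nt: uGACCUAUgaauugacagccag
miR-192-5p, 1 base downstream, 23 nt: uGACCUAUgaauugacagccagu
miR-192-5p, 1 base downstream, 21 nt: uGACCUAUgaauugacagcca
The 22-nt read had 5.63 and 0.966 CPM in the 2-month libraries, against 8.51 and 6.40 CPM in the 18-month libraries, a change of 1.22 (SE 0.53). The 23-nt read had 2.38 and 1.41 CPM in the 2-month libraries, against 5.67 and 4.08 CPM in the 18-month libraries, a change of 1.03 (SE 0.36). The 21-nt read had 1.53 and 1.05 CPM in the 2-month libraries, against 4.35 and 2.87 CPM in the 18-month libraries, a change of 0.998 (SE 0.36). All 3 were higher in both 18-month libraries, with Benjamini-Hochberg adjusted p-values from limma of 0.485, 0.397 and 0.407.

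The mean seed viability over the reads of miR-192-5p, which is set by the starts, was 40.9% and 40.1% in the 2-month libraries, against 43.5% and 42.6% in the 18-month libraries. It remained below the mean over all reads of the libraries, 57.7% to 58.4%.

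Across all members, 203 sequences were found and 58 reached a mean of 1 CPM. A limma fit over the 14287 sequences of the table at that level called 1443 (10.1%) at an unadjusted p under 0.05 and 6 after adjustment. Of the 58 member sequences 10 were called, 9 higher and 1 lower, none after adjustment: 4 of 10 of miR-133a-3p, 3 of 11 of miR-192-5p, and 1 each of miR-375-3p, miR-203-3p and miR-194-5p, the last being lower. No sequence of miR-1a-3p, miR-206-3p or miR-122-5p was called. Without the second 2-month library 1 of the 58 was called, without the first 18-month library 3, and without the second 18-month library 6. Sequences of 1 miRNA share its libraries and are not replicates of the age difference.

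**Figure D5:**
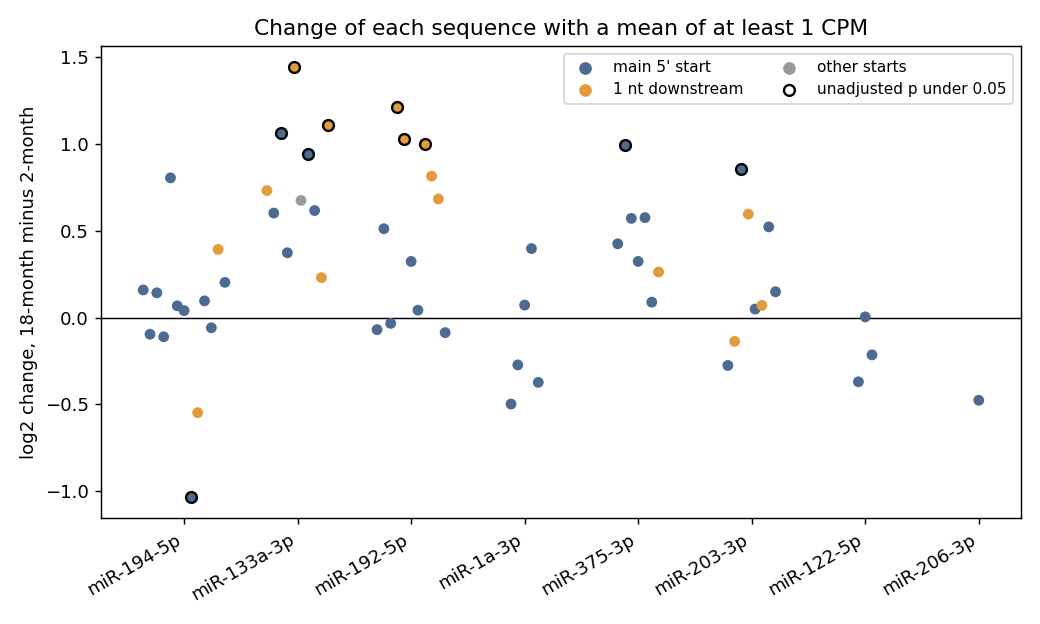
log2 change, 18-month minus 2-month, of the 58 member sequences that reach a mean of 1 CPM, 1 point per sequence, coloured by 5′ start and ringed where the unadjusted limma p was under 0.05. The ringed points of miR-192-5p (0.998 to 1.22) are all 1 nt downstream of the main start.

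The 3′ ends of miR-194-5p show which of its genes the reads match. Between 74.8% and 82.8% of the reads match both hairpins and cannot be assigned. Reads that match the hairpin of Mir194-2 only made up 17.6% and 12.2% in the 2-month libraries, against 13.1% and 18.1% in the 18-month libraries, whereas Mir194-1 alone was matched by 0.0667% and 0.0548% of the young and 0.137% and 0.269% of the old reads. The ages overlapped for Mir194-2. The remaining 4.99% to 6.88% match neither hairpin.

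Most of the assigned reads are 1 base longer than the mature sequence and end in the base that follows it in the hairpin, given in capitals here.
miR-194-5p with the next base of Mir194-2: uguaacagcaacuccauguggaA
miR-194-5p with the next base of Mir194-1: uguaacagcaacuccauguggaC
miR-194-5p with an added u: uguaacagcaacuccauguggaU
The first had 97.0 and 55.3 CPM in the 2-month libraries, against 60.0 and 109 CPM in the 18-month libraries. The second had 0.191, 0, 0 and 1.65 CPM in the same order, at most 15 reads. An added a gives the same read as the next base of Mir194-2, so the first cannot be told apart from a tailed read. The read with an added u, which neither hairpin encodes, had 6.76 to 11.3 CPM, and the first read with 1 more a, also encoded by neither, had 6.39 and 4.21 CPM in the young libraries and 8.04 and 12.02 CPM in the old ones. miR-215-5p, from the cluster of Mir194-1, was at 0.263 to 1.98 CPM, and miR-192-5p, from that of Mir194-2, at 67.6 to 125 CPM.

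Among the named reads of each hairpin, the RISC held nearly only the listed arm. The other arm gave 0.721% of the reads of both arms for miR-1a, 0.226% for miR-133a, 1.91% for miR-122, 1.60% for miR-192, 0.0992% for miR-194 and 2.56% for miR-203, over the 4 libraries together. The other arms of miR-206 and miR-375 were not found among the named reads, with 0 reads against 184 and 2374. Sequences under 4 reads over the 4 libraries had been removed, so no upper limit can be given for these shares. Reads that matched a hairpin without a mature name are not in these shares. There were 20 such reads for miR-375, 21 for miR-203 and 286 for mir-194-2, against 22 named reads of the other arm of miR-194.

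Finally, the miRNAs whose pattern over the 4 libraries was nearest to each tested member, out of 455, were listed by the root mean square distance of centred log2(CPM + 1). They were miR-449a-5p (0.03) and let-7g-5p (0.04) for miR-1a-3p, miR-29c-5p (0.12) and miR-140-3p (0.15) for miR-133a-3p, and miR-1224-3p (0.07) and miR-29b-3p (0.10) for miR-375-3p. For miR-192-5p they were miR-504-5p (0.05) and miR-99a-5p (0.09), for miR-194-5p miR-3068-5p (0.04) and miR-30d-3p (0.05), and for miR-203-3p miR-223-3p (0.01) and miR-204-5p (0.03). With 4 libraries such nearness is a description of these libraries only.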

How the data were processed

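Ago-bound RNA from the combined cortex and hippocampus of young (2 months) and old (18 months) mice, with 2 libraries per age, was gel extracted at 19 to 35 nt and sequenced on an Illumina HiSeq. The authors de-multiplexed and trimmed the reads (Trim Galore, in the submitters' processing notes), cleaned and compiled them, dropped rare ones, which left 85704 sequences, assigned names by BLAST against mouse small RNAs and deposited CPM for each sequence and library. Tool versions and the genome build are not given in the sources used here. The deposited seed viability is a score, the mean survival of 3 mouse cell lines in percent of control. Rare sequences removed by the authors (under 4 reads over the 4 libraries in this table) cannot be seen, which lowers the number of rare variants.

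CPM were whole multiples of the value of 1 read (100% within 0.001 CPM), so reads and depth were recovered. Each column had a sample by its name. CPM were summed by miRNA name. limma 3.58.1 in R 4.3.3 tested log2(CPM + 1) with age as the term, for miRNAs that averaged 10 CPM or more and sequences that averaged 1 CPM or more, two-sided, with Benjamini-Hochberg adjustment. It was tested on simulated data. Shares have 95% Wilson intervals and CPM exact 95% Poisson intervals, which cover counting error only. edgeR 4.0.16 and DESeq2 1.42.0 on the recovered reads, other pseudocounts (0.1 and 5) and filters, a rescaling by the median of ratios, the replicate block and leaving out each library were tried. Coordinates, which are GRCm38, and mature sequences were looked up by name. Python 3.11.15 was used.

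All 8 members are named. From the lists, miRNAs of other tissues are named with a mean of at least 10 CPM, other arms and relatives by their values, and for each tested member the 2 nearest miRNAs. For sequences, the most abundant of a member and up to 2 more with at least 10% of its reads were to be given. The members and lists were chosen with earlier results of these data known.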

Additional observations from a re-analysis of the deposited data

Results flagged for a closer look

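Outside the named miRNAs, 48 sequences without a mature miRNA name matched the hairpin of a member or, for 3 of them, mir-1-2-as, labelled as antisense to one. These 48 were not used in any comparison above. They summed to 8.10 and 7.37 CPM in the 2-month libraries and 9.93 and 11.1 CPM in the 18-month libraries, above the limit of 3 reads in every library. No control library without these miRNAs was analysed here. Of the 48, 32 matched mir-194-2, with 6.77 and 5.88 CPM in the 2-month libraries, against 7.47 and 7.61 CPM in the 18-month libraries, and the other hairpins had 8 to 25 reads each over the 4 libraries. Both 18-month libraries lay above both 2-month libraries, and the difference was not tested across these sequences.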

How the results depend on the processing

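The counts of calls depended on the genes tested: 125 miRNAs were called with no filter (1029 tested) and 43 with a minimum of 100 CPM (273 tested), and 424 sequences with a minimum of 10 CPM (3141 tested), at which 0 of 16 member sequences were called by limma at an unadjusted p under 0.05. After adjustment, where the main count was 1 miRNA, there were 2 with no filter, 0 by edgeR (62 at an unadjusted p under 0.05, 39 higher and 23 lower) and 19 by DESeq2, with 0 to 4 when 1 library was left out. For sequences, where the main count was 6, there were 3 with a pseudocount of 0.1 and 0 to 48 with 1 library left out. Without 1 library, 55 to 74 miRNAs, 1065 to 1411 sequences and 1 to 10 member sequences were called.

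The change of miR-133a-3p was 0.86 with a minimum of 100 CPM, no longer called (limma unadjusted p = 0.0508, adjusted p = 0.315). It was 0.40 to 1.31 with 1 library left out. That of miR-375-3p passed the unadjusted threshold by edgeR (0.74), by DESeq2 (0.73) and after rescaling (0.70), and ran from 0.18 to 0.81 with 1 library left out, being called without the first 18-month library. Adjusted p-values of miR-375-3p over its 13 alternatives ran from 0.286 to 0.801. With 1 library left out, miR-192-5p ran from -0.18 (without the second 2-month library) to 0.68, miR-194-5p from -0.12 to 0.23 (negative at -0.07 without the second 2-month library and at -0.12 without the second 18-month library) and miR-203-3p from -0.11 to 0.23 (negative at -0.11 without the first 2-month library and at -0.05 without the second 18-month library). For miR-1a-3p, whose ages did not overlap, the change ran from -0.57 to -0.15. The difference in the share of the main start changed sign for miR-194-5p (-0.203 to 0.902 points) and miR-203-3p (-3.11 to 0.305 points), and for miR-192-5p ran from -11.8 to -8.63 points. Where a fit without 1 library left an age with a single library, that library was assumed to vary like the other age. The causes of these changes were not tested.

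The ages share replicate numbers in the labels, but nothing says that the numbers pair the libraries. Deviations of same-numbered libraries from their age means had r = 0.180 over 456 miRNAs, with only 2 pairs. With the replicate block 79 miRNAs were called at an unadjusted p under 0.05 by limma and 0 after adjustment, and 3 sequences passed the adjustment. In that fit miR-133a-3p, with a change of 0.86, was not called (limma unadjusted p = 0.0779, adjusted p = 0.298). The ratio of miR-133a-3p to miR-1a-3p was tried without each library and without sequences of miR-133b-3p, alternatives chosen after seeing the data.

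With 2 libraries per age no exact test of a share can pass 0.05, and miR-206-3p and miR-122-5p rest on 34 to 81 reads per library.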
